A study of Mus musculus with 12 samples.

Results

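Small RNA from pull-downs of tagged AGO2, the Argonaute protein that carries a miRNA to its target RNA, was read in mouse embryonic stem cells. In it, the miR-200 family was followed here. Its members were taken by name from a table of 689 miRNA entries: mmu-miR-200b, mmu-miR-200a, mmu-miR-429, mmu-miR-200c and mmu-miR-141, each with or without a star (the species prefix is left out below). That gave 9 arms of 5 hairpins, 5 of them unstarred and 4 with a star, with which older miRBase names mark the strand found less often. miR-429 was listed without a star entry.

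The cells had an HA- and FLAG-tagged AGO2 transgene inducible by doxycycline and were grown on gelatin with the cytokine LIF. The 12 libraries formed 4 groups of 3: nuclear fraction with doxycycline, total fraction with doxycycline, nuclear fraction without it and total fraction without it. Doxycycline, at 2.5 ug/ml for 15 h, switched on the tagged protein, and all groups were pulled down with the same anti-FLAG M2 antibody. Cells given doxycycline are called induced and the others uninduced. Uninduced cells carried the same transgene and show which small RNA came down without induction. The labels do not say whether the line was 1 clone or whether the 3 libraries came from separate cultures. They name a total fraction where the protocol names a cytoplasmic fraction, and which of these it was is not settled. The authors gave 1 mean count per arm and group. There is therefore no replicate check of any difference below, no test across libraries was possible, and the intervals given are 95% intervals for counting error only.

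The miR-200 family is known for holding cells in an epithelial state. Its best studied targets are Zeb1 and Zeb2, repressors of the gene for E-cadherin, the adhesion protein that joins epithelial cells and also the cells of stem cell colonies. A hairpin is cut into 2 arms, of which Argonaute as a rule keeps the guide and drops the star strand, and the guide finds targets mainly through its seed, bases 2 to 8.

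On GRCm38 (the assembly also called mm10) the family lay in 2 clusters. miR-200b, miR-200a and miR-429 lay within 1846 bases of chromosome 4 (156053905 to 156055750, minus strand), inside the annotated span of Ttll10 and of the long non-coding gene Gm13648. The hairpins of miR-200b and miR-200a overlapped no exon, and miR-429 overlapped an exon of Gm13648. miR-200c and miR-141 lay within 477 bases of chromosome 6 (124717914 to 124718390, minus strand), within the annotated antisense gene Gm15884, where miR-200c overlapped no exon and miR-141 an exon of Gm29008. The nearest protein-coding gene outside was Phb2, 964 bases from miR-141.

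The guides are shown because their reads carry the comparison and because 2 seeds divide them. RefSeq sequences on GRCm38 were found for all 9 arms; the unstarred arms are the 3p arms and the starred ones the 5p arms. Capitals mark the seed.
miR-200b: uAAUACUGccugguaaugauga
miR-429: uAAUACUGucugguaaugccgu
miR-200c: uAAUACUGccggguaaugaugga
miR-200a: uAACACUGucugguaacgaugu
miR-141: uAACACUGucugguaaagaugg
The first 3 share the seed AAUACUG and the last 2 the seed AACACUG, so each cluster holds both seeds. Counted from 1 at the 5′ end, miR-200a and miR-141 differed by 2 substitutions, C17A and U22G, with the base of miR-200a first. miR-200b and miR-200c differed by U11G and A22G over 22 shared bases, with the base of miR-200b first, and miR-200c was 1 base longer.

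The star arms are shown because their reads without doxycycline set the family's background.
miR-200b*: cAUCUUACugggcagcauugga
miR-200a*: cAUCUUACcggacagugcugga
miR-200c*: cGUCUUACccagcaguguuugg
miR-141*: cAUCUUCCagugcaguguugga
miR-200b* and miR-200a* share the seed AUCUUAC, while miR-200c* has GUCUUAC and miR-141* has AUCUUCC.

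Near-identical guides can share reads. After multiplication by 3, the number of libraries per group, 29 of the 36 member values were whole to within 1e-06, and 7 were not. The 7 were values of miR-200b and miR-200c in the total fraction of induced cells and in the nuclei of uninduced cells, of miR-200a and miR-141 in induced nuclei, and of miR-141 in the total fraction of induced cells. Reads divided between entries give such fractions, so how reads fell among guides of like sequence is uncertain by an amount the table does not give. Which entries shared them is not given either: in the total fraction of induced cells the value of miR-141 was not whole and that of miR-200a was.

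The columns differed in depth. Summed over all miRNAs, a library had on average 400794 and 539627 reads in the nuclear and total fractions of induced cells, and 36329.9 and 16053.4 in those of uninduced cells. Of the reads without doxycycline, 63.7% in the nucleus and 33.3% in the total fraction were miR-805, an entry with no annotated miRNA gene in the reference used here. The stem cell clusters of miR-290 to miR-295 and of miR-302 with miR-367, which mark the labelled cell type, took 65.8% and 68.9% of reads in induced cells and 14.3% and 32.3% in uninduced cells, and none of their 22 entries was at 0 in any column. With miR-805 left out of the total these shares were 68.0% and 69.5% against 39.5% and 48.4%. The 9 entries of mesenchymal cell markers (miR-199a, miR-199b, miR-214, miR-143, miR-145) took 0.0995% and 0.129% in induced cells and 0.156% and 0.280% in uninduced cells; 3 of the 9 were at 0 in the total fraction without doxycycline. The 7 entries of blood cell markers (miR-142, miR-144, miR-150, miR-223, miR-451) took 0.895% and 0.771% in induced cells and 1.16% and 1.38% in uninduced cells, with none at 0. Most of these reads, in every column, were miR-142-3p and miR-142-5p. They had 1479 and 1915 of the list's 3589 mean reads in induced nuclei, and 128.7 and 236 of 421 in uninduced nuclei. In the total fraction of induced cells they had 2734 and 1193 of 4158. The share of this list is therefore mainly that of miR-142 and does not describe the other blood markers. Without miR-805 the mesenchymal markers took 0.103% and 0.130% in induced cells, against 0.429% and 0.420% in uninduced cells. On the same denominator the blood markers took 0.926% and 0.777%, against 3.19% and 2.07%, so both marker lists held larger shares of the uninduced columns. Their part in the results below was not tested.

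All 5 guides were found on AGO2 with doxycycline at middling to high levels, and miR-141 led the guides in every column. miR-141 had 938.2 mean reads per library in the nucleus and 899.1 in the total fraction of induced cells, against 30.7 and 23.0 in uninduced cells. It ranked 51st and 62nd of the 689 entries with doxycycline. In CPM, reads scaled to a common total of 1000000 miRNA reads, its level was 2341 (2255 to 2428) in the nucleus and 1666 (1604 to 1730) in the total fraction of induced cells, against 844 (680 to 1035) and 1433 (1115 to 1813) in uninduced cells. With miR-805 left out of the total, the level was 2420 and 1680 in induced cells, against 2324 and 2146 in uninduced cells. How it compares between induced and uninduced cells thus rests on the denominator. miR-141 was the 1 guide with at least as many mean reads in the nuclear as in the total fraction of induced cells, although the nuclear libraries were shallower. Its read ratio, nuclear over total, was 1.04 (0.989 to 1.10). That of miR-429 was 0.887 (0.781 to 1.01), an interval that also includes equal reads.

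miR-200a, the other guide with the seed AACACUG, had 465.5 and 565.7 mean reads with doxycycline and 7.67 and 8.67 without it. miR-200b, its neighbour on chromosome 4, had 407.3 and 583.9 with doxycycline and 16.5 and 11.0 without it. These neighbours, in induced cells, were close to equal: the ratio of miR-200b to miR-200a reads was 0.875 (0.810 to 0.946) in the nucleus and 1.03 (0.965 to 1.10) in the total fraction. miR-429, the last hairpin of that cluster, had 154.3 and 174.0 mean reads with doxycycline, about a 3-fold lower level than miR-200a, at ratios of miR-200a to miR-429 of 3.02 (2.71 to 3.36) and 3.25 (2.95 to 3.59). Without doxycycline miR-429 came down to 2.00 and 1.00 mean reads, which is 6 and 3 reads over the 3 libraries.

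miR-200c, the partner of miR-141 on chromosome 6, had 242.0 and 346.3 mean reads with doxycycline and 15.8 and 12.7 without it. In the total fraction with doxycycline the levels fell in the order miR-141, miR-200b, miR-200a, miR-200c and miR-429, where miR-200b at 1082 CPM (1032 to 1134) and miR-200a at 1048 CPM (999 to 1099) did not separate beyond counting error. In the nuclear fraction miR-200a, at 1161 CPM (1101 to 1224), stood above miR-200b at 1016 CPM (960 to 1075), and the other places were the same. All arms are 22 or 23 bases long, so reads were not scaled by length. How well each sequence ligates to the adapters also enters such levels and was not measured.

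**Figure D1:**
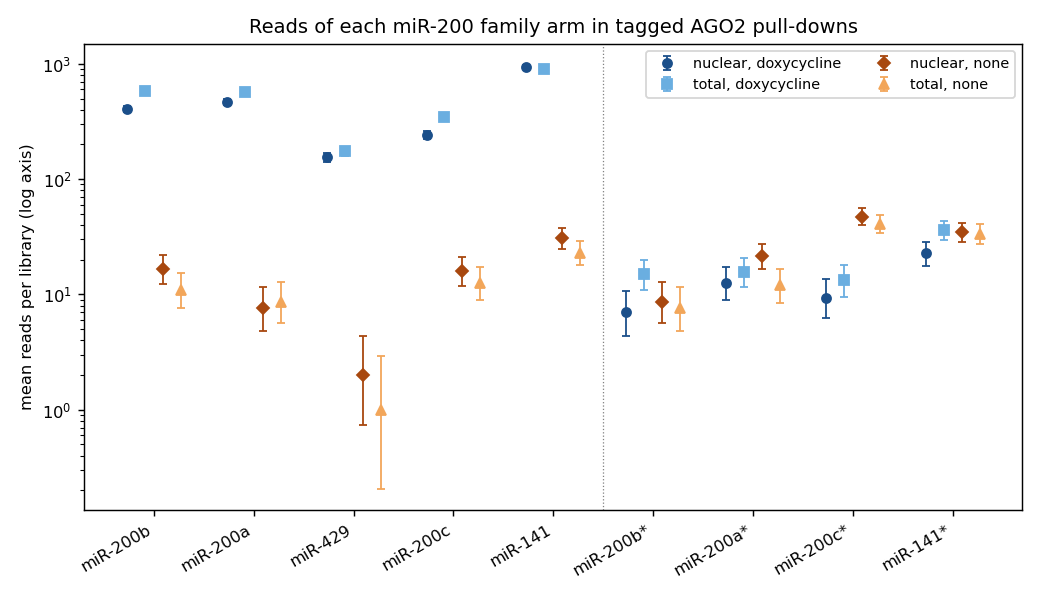
Mean reads per library on a log axis for each arm, with 95% counting intervals, in nuclear and total fractions with doxycycline and without it (none). The 5 unstarred arms, left of the dotted line, have 154 to 938 reads with doxycycline and at most 30.7 without it, while the 4 star arms lie between 7 and 47.3 reads in all columns.

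The family as a whole held a small share of the miRNA reads in every column. Its 9 arms took 0.564% (Wilson interval 0.550 to 0.577) of all reads in the nucleus and 0.491% (0.480 to 0.502) in the total fraction of induced cells, against 0.509% (0.469 to 0.553) and 0.936% (0.854 to 1.03) in uninduced cells. Since miR-805 filled so much of the libraries without doxycycline, the share was also taken without that entry, and was then 0.583% and 0.495% with doxycycline and 1.40% and 1.40% without it. For the guides alone the shares without miR-805 were 0.569% and 0.480% with doxycycline and 0.551% and 0.526% without it. Of all reads the guides took 0.551% and 0.476% in induced cells, against 0.200% and 0.351% in uninduced ones, so how their share compares between induced and uninduced cells rests on the denominator. Without miR-805, the nuclear (0.556 to 0.583) and total (0.469 to 0.491) intervals of induced cells did not overlap each other, and the higher family share in uninduced cells was made of star reads.

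In induced cells the guides of the clusters were near balance in the total fraction and tilted to chromosome 6 in the nucleus. miR-200c and miR-141 gave 53.5% (52.3 to 54.7) of the guide reads of the family in the nucleus and 48.5% (47.4 to 49.6) in the total fraction of induced cells. Without doxycycline they gave 64.0% (57.7 to 70.3) and 63.3% (55.8 to 70.2), on 218 and 169 guide reads over the 3 libraries. The tilt in induced cells came with miR-141, at 42.5% of guide reads in the nucleus and 35.0% in the total fraction. The share of miR-200c was lower in the nucleus, at 11.0% against 13.5%. Within the chromosome 6 cluster, miR-141 exceeded miR-200c by 3.88 times (3.57 to 4.21) in the nucleus and 2.60 times (2.42 to 2.79) in the total fraction of induced cells. The nuclear ratio was 1.49 times (1.34 to 1.66) the total one, a contrast that no scaling between libraries can change. Without doxycycline the same ratio was 1.94 (1.34 to 2.78) and 1.82 (1.21 to 2.77).

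Read by seed, the guides with AAUACUG made up 36.4% (35.3 to 37.6) of guide reads in the nucleus and 43.0% (41.9 to 44.1) in the total fraction of induced cells. Without doxycycline this share was 47.2% (40.7 to 53.9) and 43.8% (36.5 to 51.3), with wide intervals that overlap. The lower nuclear share came with miR-141, which alone was 42.5% of guide reads in the nucleus and 35.0% in the total fraction of induced cells. It was not common to all guides of a seed: relative to miR-200a, which has the same seed, miR-141 stood 1.27 times (1.16 to 1.39) higher in the nuclear than in the total fraction, and miR-200b stood lower relative to miR-429 at 0.786 times (0.680 to 0.909). For miR-200b relative to miR-200c, which share a seed but lie on different chromosomes, the corresponding value was 0.998 (0.886 to 1.13).

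**Figure D2:**
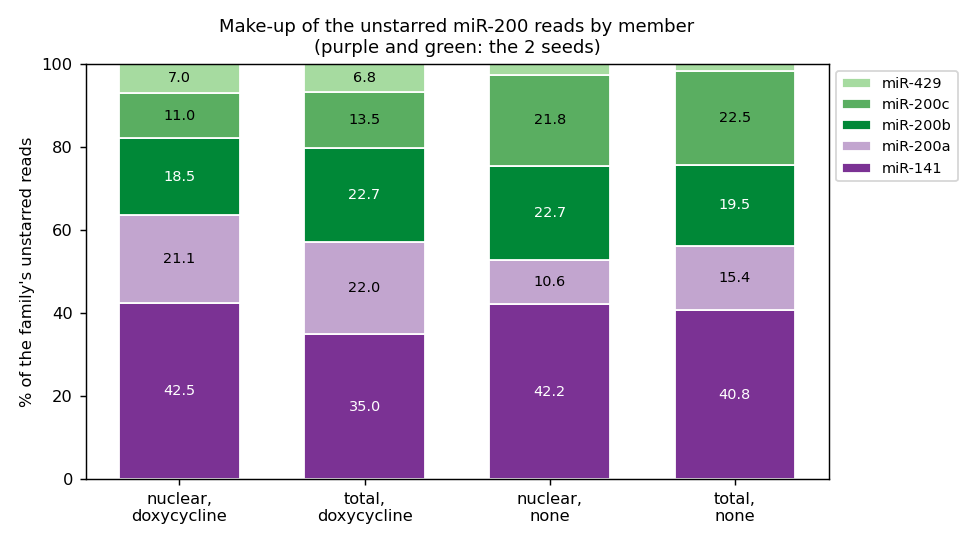
Percent of the family's unstarred reads given by each guide in the 4 columns, with guides of the seed AACACUG in purple and those of AAUACUG in green. miR-141 takes 42.5% in the nucleus and 35.0% in the total fraction of induced cells, and miR-429 takes under 3% of the few guide reads of uninduced cells.

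In induced cells, the first question was whether nuclear AGO2 carried the family in the proportion seen in the total fraction. Folds were taken after TMM scaling, which sets the typical miRNA to no change, and at least 2-fold in either direction was used as a rule of size. All 9 arms reached the minimum of 10 mean reads in at least 1 column, and none of the 9 was past 2-fold in the nucleus, with 0 higher and 0 lower. Of all 378 entries past the minimum, 10.3% were higher and 3.97% lower by that rule. The 5 guides had a median log2 fold of 0.13, against -0.04 for all entries. miR-141 stood highest at a log2 fold of 0.47 (0.40 to 0.55), ahead of miR-429 at 0.24 (0.06 to 0.42) and miR-200a at 0.13 (0.03 to 0.23). miR-200b was at -0.11 (-0.21 to -0.00) and miR-200c at -0.10 (-0.24 to 0.03). The summed guides of chromosome 6 were at 0.34 (0.27 to 0.40) and those of chromosome 4 at 0.05 (-0.02 to 0.12). All 5 guides summed were at 0.19, but at -0.22 on unscaled reads and at -0.015 with no minimum, so the sign of this sum rests on the processing. Among the star arms, miR-200b* was lowest at -0.69 (-1.51 to 0.09), on 7 nuclear and 15.0 total mean reads, and the intervals of all 4 included no change.

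With and without doxycycline, cells were compared to ask which arms depended on the induced protein. Guides and star arms parted in reads. Summed guide reads of induced cells were 30.4 times (26.5 to 34.9) those of uninduced cells in the nucleus and 45.6 times (39.2 to 53.4) in the total fraction. Summed star reads with doxycycline were 0.460 times (0.378 to 0.558) those of uninduced cells in the nucleus and 0.851 times (0.713 to 1.01) in the total fraction. These ratios also contain the depth of the libraries, which cannot be told apart from induction. The 2 strands of a hairpin were counted in the same libraries, so the contrast between them does not depend on that depth.

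miR-200c* had 9.33 and 13.3 mean reads with doxycycline in the nuclear and total fractions, against 47.3 and 40.7 without it, and it was the 1 star arm with fewer reads with doxycycline in both fractions and intervals of the read ratio below 1, at 0.197 (0.127 to 0.297) and 0.328 (0.223 to 0.472). Without doxycycline it ranked 47th and 49th of 689 entries, above every guide of the family, whereas with doxycycline it ranked 366th and 333rd. miR-141* had 22.7 and 36.0 mean reads with doxycycline, against 34.7 and 33.7 without it. miR-200a* had 12.7 and 15.7 against 21.7 and 12.0, and miR-200b* had 7 and 15.0 against 8.67 and 7.67. The read ratios of these 3 lay between 0.585 (0.381 to 0.886) for miR-200a* in the nucleus and 1.96 (1.16 to 3.39) for miR-200b* in the total fraction, while those of their guides were all above 20. Of all starred entries tested, 12 of 64 in the nucleus and 6 of 69 in the total fraction had fewer reads with doxycycline. The median read ratios of starred entries with reads in uninduced cells were 2.86 and 4.49.

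The star share of a hairpin, its star reads as a percent of both arms, compares strands inside a library. For miR-200c it was 3.71% (2.58 to 5.31) and 3.71% (2.73 to 5.01) in the nuclear and total fractions with doxycycline, against 74.9% (68.1 to 80.4) and 76.3% (69.1 to 82.2) without it. For miR-141 it was 2.36% (1.87 to 2.98) and 3.85% (3.20 to 4.63) with doxycycline, against 53.1% (46.1 to 59.9) and 59.4% (51.9 to 66.5) without it. For miR-200a it was 2.65% (1.94 to 3.62) and 2.69% (2.03 to 3.57) against 73.9% (63.8 to 81.9) and 58.1% (45.7 to 69.5), and for miR-200b 1.69% (1.11 to 2.57) and 2.50% (1.88 to 3.33) against 34.4% (24.5 to 45.4) and 41.1% (29.2 to 54.1). Within each of these hairpins, no interval with doxycycline overlapped one without it. Such overlap was not counted for other hairpins, so this is not shown to be particular to the family. With doxycycline, miR-141 carried a larger star share in the total than in the nuclear fraction, with intervals that do not overlap, while those of the other 3 hairpins did.

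The same shift was present in other hairpins. Of 103 further hairpins listed with a starred and an unstarred entry, 88 and 88 had at least 10 mean reads on both arms together with doxycycline, at median star shares of 4.46% and 6.03% in the nuclear and total fractions. Without doxycycline 60 and 54 had as many reads, at medians of 37.8% and 35.0%, and 22 and 21 of them exceeded 50%. miR-200a, miR-200c and miR-141 lay above those medians without doxycycline in both fractions, as did miR-200b in the total fraction only, and all 4 lay below the medians with it.

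**Figure D3:**
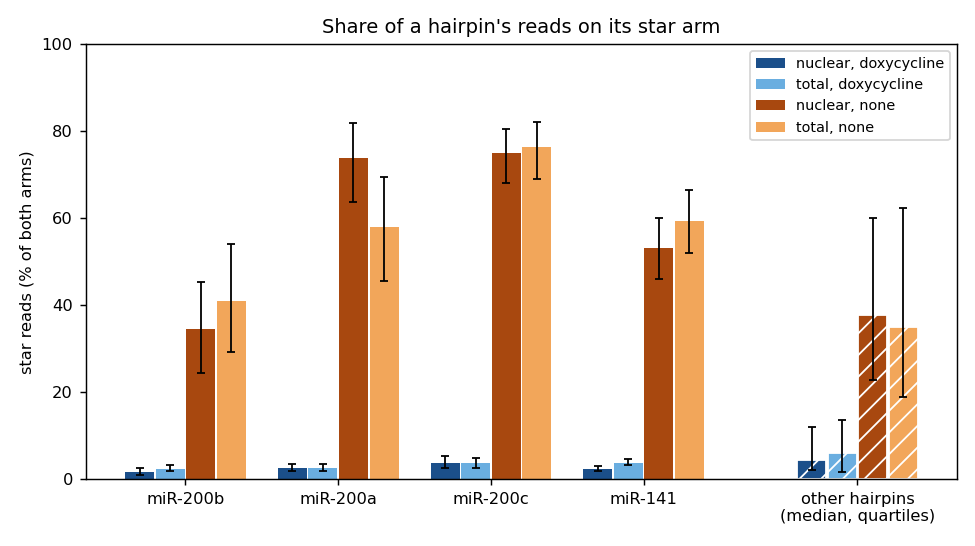
Star reads as percent of both arms for the 4 hairpins with 2 listed arms, with 95% Wilson intervals, beside the median and quartiles of the other hairpins (hatched). Shares are at most 3.85% with doxycycline and 34.4% to 76.3% without it.

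After scaling, a miRNA needed 15.6 times as many reads in induced as in uninduced nuclei, and 32.2 times as many in the total fraction, to be at a log2 fold of 0. In the nuclear fraction 8 of 9 arms passed the minimum, of which 2 were 2-fold or more higher and 3 as much lower; of all 371 entries tested, 30.5% were higher and 33.7% lower. The 2 were miR-429, whose log2 fold was 2.30 (1.17 to 3.76), and miR-200a at 1.96 (1.36 to 2.62), both of which passed the minimum only with doxycycline. miR-141 was just inside the 2-fold line at 0.97 (0.67 to 1.28), miR-200b at 0.66 (0.24 to 1.08) and miR-200c at -0.03 (-0.47 to 0.40). The 3 lower arms were star strands, at -4.58 (-5.04 to -4.13) for miR-141*, -4.74 (-5.36 to -4.14) for miR-200a* and -6.31 (-6.95 to -5.72) for miR-200c*. Of these, miR-200c* passed the minimum only without doxycycline, at 47.3 mean reads against 9.33 with it. miR-200b* stayed under the minimum in both nuclear columns.

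In the total fraction all 9 arms passed, of which 2 were 2-fold or more higher and 4 as much lower; of all 359 entries tested, 31.8% were higher and 32% lower. miR-429 was again highest at 2.43 (0.88 to 4.72), on 3 reads without doxycycline, and miR-200a was at 1.02 (0.46 to 1.64), barely over the line; both again passed the minimum only with doxycycline. miR-200b followed at 0.72 (0.23 to 1.26), miR-141 at 0.28 (-0.07 to 0.65) and miR-200c at -0.24 (-0.70 to 0.27). All 4 star arms were lower, between -4.04 for miR-200b* and -6.62 for miR-200c*, though on unscaled reads miR-200b* was at 0.97, miR-200a* at 0.38 and miR-141* at 0.10. Among them, miR-200b* passed the minimum only with doxycycline, at 15.0 mean reads against 7.67 without it. The summed guides were at 0.50 there, and at -0.13 when scaled by library totals without miR-805. Star strands were often low in this table: 70.3% of 64 starred entries tested in the nucleus and 73.9% of 69 in the total fraction were at least 2-fold lower, at medians of -2.45 and -2.83. The medians of the family's tested star arms were -4.74 and -4.77, and those of its guides 0.97 and 0.72 beside 0.34 and 0.41 for all unstarred entries. The medians of all entries tested were 0.04 in both fractions. With library totals in place of TMM the nuclear median moved to 0.55, and with totals without miR-805 it moved to -0.87 in the nucleus and -0.59 in the total fraction, so log2 folds are to be read relative to the median under the same scaling.

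**Figure D4:**
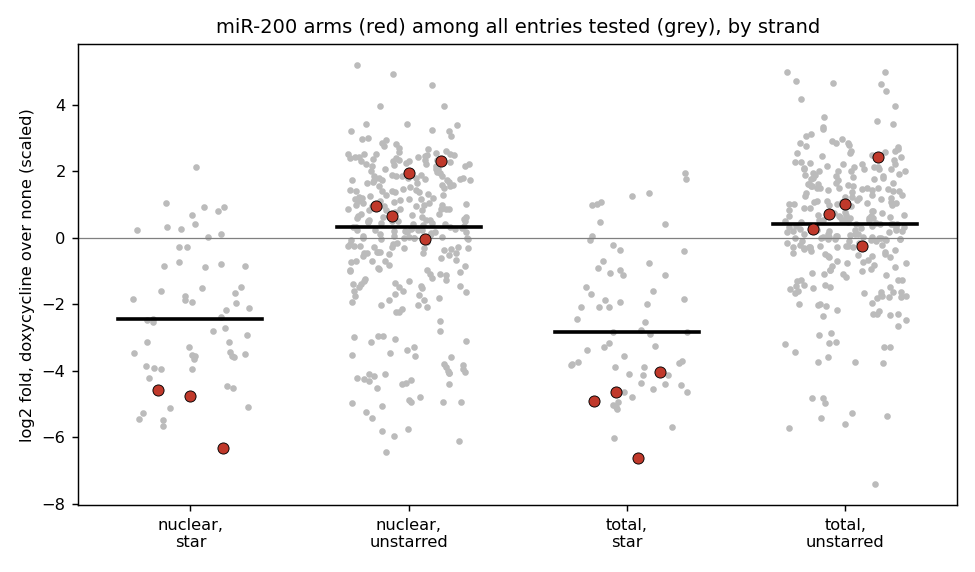
Scaled log2 fold of doxycycline over none for every entry past the minimum, by fraction and strand (grey), with the miR-200 arms in red and the median of all entries of a strand as a bar. The red star arms lie between -4.04 and -6.62 and the red guides between -0.24 and 2.43.

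Among the guides that reached the minimum in all columns, miR-200c had the lowest doxycycline fold in both fractions, while miR-141 and miR-200b changed places. Relative to miR-200c, miR-200b was 1.62 times (1.07 to 2.43) as high with doxycycline as without it in the nucleus and 1.94 times (1.21 to 3.12) in the total fraction. The doxycycline fold of the nuclear fraction exceeded that of the total fraction by 0.69 (0.23 to 1.14) on the log2 scale for miR-141 and by 0.94 (0.12 to 1.75) for miR-200a. For the other 7 arms the interval of this difference included 0, which does not show that the folds were equal. On unscaled reads the difference was -0.35 for miR-141 and -0.10 for miR-200a, and for the summed guides it was -0.59 against 0.46 with TMM factors, so the sign rests on the scaling in each case. miR-200a was also under the minimum in both columns of uninduced cells.

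The fractions of uninduced cells describe what came down without induction. Of the 9 arms, 6 passed the minimum, and none was past 2-fold in the nucleus (0 higher, 0 lower), against 23.8% higher and 16.9% lower of 189 entries. miR-200a* was highest, with a log2 fold of 0.43 (-0.18 to 1.06), and miR-141* lowest at -0.38 (-0.79 to 0.03). miR-200a, miR-429 and miR-200b* had fewer than 10 mean reads in both columns. The intervals of all 9 arms included no change, on at most 47.3 mean reads per library.

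**Figure D5:**
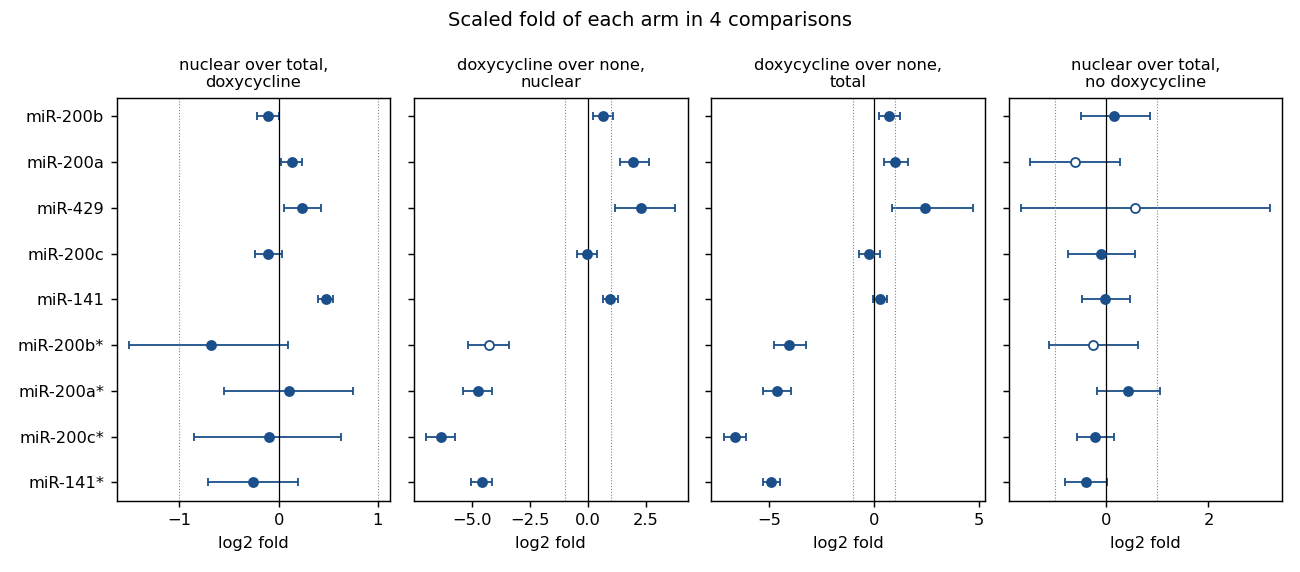
Scaled log2 fold of each arm with 95% counting intervals in 4 comparisons, with dotted lines at 2-fold; open circles did not reach the minimum of 10 mean reads, and the horizontal scales differ between panels. Guides and star arms separate in the panels of doxycycline over none and lie within 2-fold in both panels of nuclear over total.

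Guides with at least 10 mean reads in all 4 columns were miR-200b, miR-200c and miR-141, and 122 entries reached that minimum. Likeness was measured as the distance between scaled log2 levels centred on each entry's own mean over the 4 columns, so it describes 4 points that share libraries. Nearest to miR-200c was miR-92a, of the miR-17-92 cluster, at 0.10, followed by miR-376c at 0.17 and miR-127* at 0.29. Nearest to miR-200b were miR-22 at 0.16, miR-27a at 0.31 and miR-21 at 0.34, and to miR-141 miR-21 at 0.17, miR-26a at 0.28 and miR-293* at 0.34. Between members, miR-200b and miR-141 were 0.43 apart, miR-200b and miR-200c 0.85, and miR-141 and its cluster partner miR-200c 0.86. The entries named above are the nearest of all non-members past the minimum. They therefore do not show whether the distances between members are large or small for this table.

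Other miRNAs tied to epithelial cells (miR-203, miR-205, the miR-34 family, miR-192, miR-194, miR-215 and the cluster of miR-96, miR-182 and miR-183) had 15 entries, of which 10 passed the minimum with doxycycline. None was at least 2-fold different between nuclear and total fractions with doxycycline (median log2 fold -0.13, against -0.04 for all entries, of which 10.3% were higher and 3.97% lower). With doxycycline against none, 5 were past 2-fold higher and 1 past 2-fold lower in the nucleus (median 0.92), and 6 higher and 1 lower in the total fraction (median 1.07), beside the 30.5% and 31.8% of all entries that were higher and the 33.7% and 32% that were lower. The 1 lower entry was miR-203, a miRNA of skin epithelium, in both. The most abundant were miR-34a, a miRNA induced by p53, with 2407 and 3724 mean reads with doxycycline against 45.3 and 47.7 without it, and miR-96 with 1520 and 1509 against 21.7 and 19. Only 5 of the 15 entries reached the minimum in a column without doxycycline. The other entries tested passed only with it, so the filter itself favours higher calls among them.

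miRNAs tied to mesenchymal cells or to loss of the epithelial state (miR-199a, miR-199b, miR-214, miR-143, miR-145, miR-10b, miR-21, miR-155, miR-221 and miR-222) had 16 entries. Between the fractions with doxycycline 11 passed, of which 0 were past 2-fold higher and 1, miR-145*, was past 2-fold lower in the nucleus (median -0.23). Of all 378 entries in that comparison, 10.3% were higher and 3.97% lower, at a median of -0.04. With doxycycline against none, 0 of 10 were higher and 5 lower in the nuclear fraction (median -0.78), and 1 of 11 was higher and 6 lower in the total fraction (median -1.08). The lower calls included 1 star entry in the nucleus and 2 in the total fraction, and of all entries 33.7% and 32% were lower and 30.5% and 31.8% higher. The most abundant of them, miR-21, had 2354 and 2623 mean reads with doxycycline against 81.7 and 66.0 without it, at log2 folds of 0.88 and 0.30, close to those of miR-141. miR-143, a smooth muscle and fibroblast miRNA, had 291.3 and 529.3 against 18.3 and 13.0, a level below that of miR-200b in the same columns with doxycycline. Of the 16 mesenchymal entries, 5 reached the minimum in a column without doxycycline, so the others tested passed only with it. The counts of these lists are a description with no test.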

How the data were processed

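Small RNA from pull-downs of tagged AGO2 was sequenced in 12 libraries, 3 per group. The authors deposited a table of 689 miRNA entries whose values are estimated counts (expected counts), 1 mean column per group, not scaled. That they are means over 3 libraries was read from the values: multiplied by 3, 78.4% to 91.4% of a column's values became whole (tolerance 1e-06). The submitters' processing notes name TopHat, bcl2fastq 2.17.1 and mm10; the counting step is not given in the sources used here, and no per-library value was used. No test was run, since the table holds no replicates.

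Log2 folds came from mean counts scaled with TMM factors (edgeR 4.0.16, R 4.3.3) over all entries with a mean of at least 10 in at least 1 compared column. Each has a 95% Clopper-Pearson interval of the read ratio, from mean counts times 3, rounded; shares have 95% Wilson intervals, levels exact Poisson intervals, and differences and ratios of ratios a normal approximation. Because PCR reads carried no molecular identifiers, all intervals, and the floor for a count of 0, describe counting error alone. A count of 0 allows up to 3 reads: 2.50 and 1.85 CPM in the nuclear and total fractions with doxycycline, 27.5 and 62.3 CPM without it. No member was at 0. Starred entries are those ending in a star; all other entries count as unstarred. The procedure was run on simulated Poisson counts of a shared profile, with a smaller part of the entries changed than between induced and uninduced columns. That run therefore does not check the scaling of those comparisons. Sequences and hairpin positions are from RefSeq (GRCm38.p6) and overlaps from GENCODE vM21 on GRCm38; no promoter sequence was used. Every member arm is named; the 3 nearest entries and the 2 most abundant arms of each other list were named by rule. Members, lists and rules were chosen with earlier results of these data known. Alternatives were other scalings, filters, added reads and subtraction of reads without doxycycline. Calculations were done in Python 3.11.15 with SciPy 1.17.1, numpy 2.4.6 and pandas 2.3.3, and plots with matplotlib 3.10.9.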

Additional observations from a re-analysis of the deposited data

How the results depend on the processing

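No paired analysis was possible because the table holds 1 mean column per group; leaving out a replicate was not run for the same reason. Scaling moved the folds most. The log2 fold of the summed guides, nuclear over total with doxycycline, was 0.19; it was 0.25 by library totals without miR-805, -0.22 without scaling, -0.015 without the filter, 0.28 with a minimum of 30 and 0.31 with the reads without doxycycline subtracted. Without scaling, 1 arm (miR-200b*) was then at least 2-fold lower, as were 44 of all 378 entries. For doxycycline over none in the nuclear fraction it was 0.96, and 1.46 by library totals, 0.048 by totals without miR-805, 4.92 without scaling, 2.77 without the filter and 0.45 with a minimum of 30. Arms at least 2-fold higher, 2 as reported, were 4 by library totals, 5 without scaling and 5 without the filter, and 1 arm was lower without scaling. Of all 371 entries, 113 were higher as reported, 151 by library totals and 301 without scaling, where 15 were lower. With no filter, 247 of 682 entries were higher. In the total fraction the fold was 0.50, and -0.13 by totals without miR-805, 5.51 without scaling, 1.50 without the filter and 0.19 with a minimum of 30. There 1 arm was higher with median-of-ratios factors, with library totals, with totals without miR-805, with a minimum of 30 and with 0.5 reads added, 5 without scaling and 4 without the filter; 2 were lower with a minimum of 30 and 1 without scaling. Of all 359 entries, 114 were higher as reported, 107 with median-of-ratios factors and 107 with library totals. Totals without miR-805 gave 70, 0.5 reads added gave 90 and no scaling gave 330 higher and 3 lower. With a minimum of 30, 89 of 289 entries were higher and 78 lower. With no filter, 188 of 624 were higher. Without scaling, miR-200b* reversed to 0.97, miR-200a* to 0.38 and miR-141* to 0.10 in that fraction. Nuclear over total without doxycycline, -0.06 for the guides, was -0.81 by library totals (1 arm lower, beside 76 of all 189 entries), 0.37 without scaling and 0.34 with a minimum of 30. The difference between the doxycycline folds of the fractions, 0.46, was 1.02 by library totals, -0.59 without scaling and 1.27 without the filter. With the reads without doxycycline subtracted, the family's star share with doxycycline was 0% (nuclear) and 0.528% (total). The reads were subtracted unscaled, and negative values were set to 0. Every star arm of the family had fewer reads in induced than in uninduced nuclei, so the 0% follows from the subtraction itself. Among all starred entries tested there, 12 of 64 had fewer. Leaving miR-805 out of the total moved the family's share to 0.583% in the nuclear fraction with doxycycline and to 1.40% and 1.40% in the nuclear and total fractions without it. The seed shares kept within their intervals under every alternative run. Beyond the scaling and filter themselves, the cause was not tested. Depth limits the columns without doxycycline most, where miR-429 rests on 6 and 3 reads.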
